A study of Mus musculus with 8 samples.

Results

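The receptors for GABA, the main inhibitory transmitter of the brain, and for glutamate, the main excitatory one, were followed at the transcript level in mouse hypothalamus and liver. Members were taken by gene symbol: probes whose annotation gave exactly 1 symbol were kept where it named a GABA-A or GABA-B receptor gene (Gabr, Gabbr) or an AMPA (Gria), kainate (Grik), NMDA (Grin), delta (Grid) or metabotropic (Grm) glutamate receptor gene. The choice gave 30 genes, on 34 probes, among 13840 genes with such a probe. Of these, 14 belong to GABA receptors and 16 to the glutamate side. One of the 16, Grid2ip, matched by its name only: it encodes a protein that interacts with delta receptors and is not itself a subunit. The other 29 are part of 47 genes of the receptor families. The remaining family genes were not analysed here. Where a gene had several probes, the one with the highest mean over the 8 arrays stood for it.

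RNA came from male mice of 2 strains, C57BL/6J (B6) and B6.CAST-17, a homozygous congenic line that carries a segment of chromosome 17 from the CAST strain on the B6 background. Mice ate chow or chose for 24 h between a diet of 78% carbohydrate and 22% protein and one of 78% fat and 22% protein, called 2-choice below. Of 20 to 25 mice screened per strain over 10 days, those that differed most between strains were kept, so the pools were selected on the behaviour, and these mice went back to chow for 6 weeks before the tissues were taken. Each of the 8 arrays measured a pool of RNA from 6 mice, with 1 pool for each combination of tissue, strain and diet. No combination was repeated, and the labels give no age.

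GABA-A receptors are chloride channels made of several subunits, usually built from alpha and beta subunits with a gamma or another subunit, and they give fast inhibition, while GABA-B receptors act through G proteins. AMPA, kainate and NMDA receptors are cation channels made of several subunits that carry fast and slower excitation, and metabotropic glutamate receptors act through G proteins. In the hypothalamus, GABA and glutamate carry most of the fast signals between the neurons that control feeding. Liver holds hardly any neurons and served as the floor against which the hypothalamus levels were read.

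Upstream sequence was at hand for 23 of the 30 members, as windows of 250 bases that end at a gene's start, from RefSeq on the mouse build GRCm38.p6. These windows were searched on both strands for a site of the neuronal repressor REST, written as TTCAGCACC with up to 1 differing base, then 2 bases of any kind, then GGACAGC. They were also searched for the NRF1 core GCATGCGC and the GC box GGGCGG. The window of Gria2, whose product keeps calcium out of AMPA receptors, is printed because it was the only member window with the REST pattern, which 0.0183% of the 32851 windows held. That of Gabrb1, a GABA-A beta subunit, was the only member window with the NRF1 core (2.26% of all windows). Both genes stood at least 6 log2 units above liver on average. Grik4 is shown because it had the largest diet difference of the members, and Gabbr1 because it is the only member on chromosome 17. The windows of both hold the GC box, as did those of 11 members and 32.7% of all windows. Capitals mark the matches, and each line runs 5′ to 3′ on the strand of the gene. The windows lie at chr3:80802836-80803085 on the minus strand (Gria2), chr5:71699682-71699931 on the plus strand (Gabrb1), chr9:42944372-42944621 on the minus strand (Grik4) and chr17:37045716-37045965 on the plus strand (Gabbr1).
Gria2: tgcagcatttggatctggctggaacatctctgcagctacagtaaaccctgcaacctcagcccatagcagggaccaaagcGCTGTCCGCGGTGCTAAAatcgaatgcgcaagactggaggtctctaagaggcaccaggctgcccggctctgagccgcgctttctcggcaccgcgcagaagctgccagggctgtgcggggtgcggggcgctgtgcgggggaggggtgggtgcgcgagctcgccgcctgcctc
Gabrb1: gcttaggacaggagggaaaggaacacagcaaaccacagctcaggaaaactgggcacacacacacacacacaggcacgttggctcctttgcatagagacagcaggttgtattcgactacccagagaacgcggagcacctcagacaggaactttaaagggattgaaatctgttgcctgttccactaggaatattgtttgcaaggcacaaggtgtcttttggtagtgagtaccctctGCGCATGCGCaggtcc
Grik4: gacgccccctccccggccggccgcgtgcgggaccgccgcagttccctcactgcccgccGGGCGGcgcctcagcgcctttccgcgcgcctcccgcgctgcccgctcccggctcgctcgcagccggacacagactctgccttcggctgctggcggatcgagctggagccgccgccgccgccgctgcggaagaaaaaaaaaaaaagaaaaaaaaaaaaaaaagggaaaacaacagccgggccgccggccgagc
Gabbr1: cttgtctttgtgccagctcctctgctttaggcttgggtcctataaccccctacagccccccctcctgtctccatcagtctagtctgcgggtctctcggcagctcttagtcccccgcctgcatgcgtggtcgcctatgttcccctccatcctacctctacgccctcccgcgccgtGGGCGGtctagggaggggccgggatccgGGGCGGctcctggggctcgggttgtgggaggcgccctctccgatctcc
The match in Gria2 has 1 differing base, lies on the opposite strand and ends 153 bases before the start of the gene. The NRF1 core in Gabrb1 was matched on both strands, and the 2 matches overlap, and they end 8 and 6 bases before the start. A match of letters is a description of the window and was not tested as a binding site.

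The arrays differed before any scaling. The median deposited intensity was 560 on both hypothalamus chow arrays and 1338 on both hypothalamus 2-choice arrays, against 700 and 702 in the liver sets. The arrays of a pair shared 1 distribution of values, so in the hypothalamus diet and the authors' scaling cannot be told apart. The hypothalamus chow arrays correlated at 0.841 with each other across probes, against 0.973 for the 2-choice arrays and 0.928 to 0.954 among liver arrays. Decr2, which was lower in the congenic pool by more than 2 log2 units in 3 of the 4 strain pairs, was higher by 1.38 in the hypothalamus chow pair. That pair therefore goes against its strain labels for this gene, some sample descriptions also contradict the titles that gave the groups, and strain differences are given below by pair. Of the 11 neuron markers measured, 10 were tested, and all 10 were called higher in hypothalamus than in liver, beside 21.3% of all probes. The other, Snap25, stayed low in both tissues (log2 7.55 to 9.26 in hypothalamus, 8.03 to 8.68 in liver) and was not tested. All 10 hypothalamic neuropeptide genes measured were called higher in hypothalamus.

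Levels below are log2 intensities after quantile normalization within each tissue, and differences are differences of these. A probe entered the tests of a tissue when its mean level there reached the 40th percentile, which was 9.26 in hypothalamus and 9.04 in liver. In hypothalamus 24 members reached it and in liver 15, with 10 in both. The tissue comparison took every probe that reached it in either tissue, so 14 members entered through hypothalamus only and 5 through liver only, and a member that entered through 1 tissue tends to stand higher there. Gabrr1, a rho subunit best known from the retina, reached it in neither tissue and was not tested. Of the 24, 18 were above it on all 4 hypothalamus arrays. The tissues were not scaled to each other. Called means an adjusted p under 0.05 in limma with Benjamini-Hochberg adjustment over all probes tested, and such a p rests on the spread among single pools, without any repeat of a condition.

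**Figure D1:**
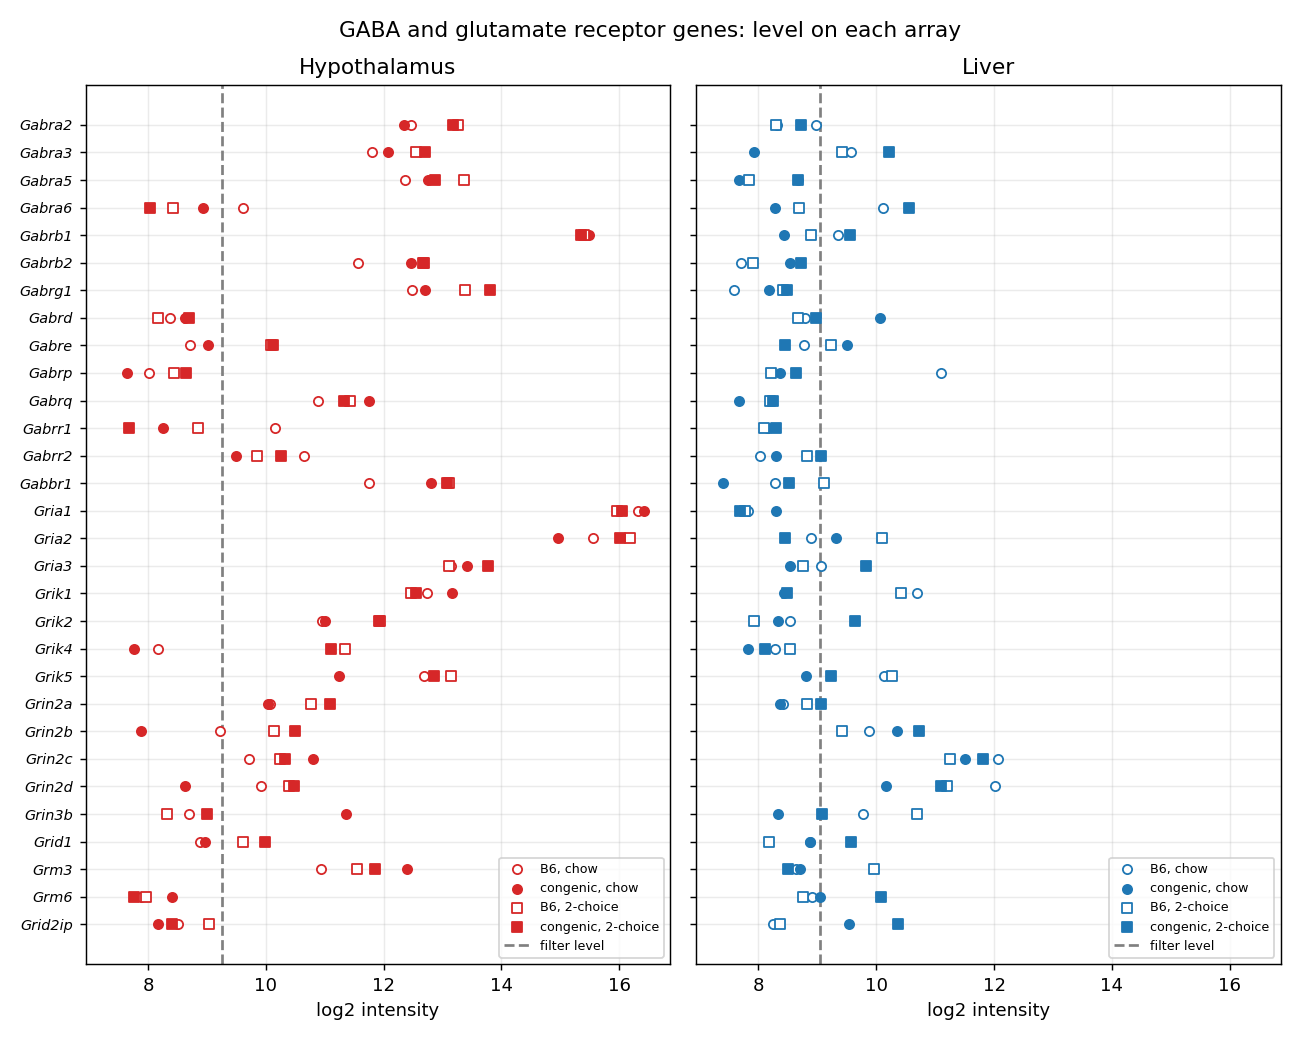
Level of each of the 30 genes on each array (x axis, log2 intensity after quantile normalization within a tissue), hypothalamus left and liver right, 1 symbol per pool, with the filter level of the tissue dashed. Gria1, Gria2 and Gabrb1 lie far to the right in hypothalamus on all 4 arrays, and Grik4 lies under the filter level on both chow arrays and above it on both 2-choice arrays.

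Most of the receptor genes were higher in hypothalamus than in liver. Of the 29 members tested, 17 were called higher, beside 21.3% of all probes tested, 3 were called lower, beside 20.7%, and 9 were not called. The median difference of the members was 2.73, against 0.04 for all probes. On the GABA side 9 of 13 were called higher and the other 4 were not called. On the glutamate side 8 of 16 were called higher and 3 lower. For all 17 called higher, the 4 hypothalamus arrays lay above the 4 liver arrays, which held for 20.7% of all probes. In bulk tissue, fewer cells of a type and less RNA per cell cannot be told apart. In 11 of the 17 the liver mean was under the filter level, so they entered the test through hypothalamus only. They were Gabbr1, Gabra2, Gabra5, Gabrb2, Gabrg1, Gabrq, Gabrr2, Gria1, Grik2, Grin2a and Grm3. For these 11, neither the p nor the size given below is support by itself, and the sizes rest on liver values near the floor. With no filter on level, the count of members called higher was also 17.

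Among the GABA-A alpha subunits, which with the beta subunits form the GABA binding site, Gabra2, Gabra3 and Gabra5 were called higher. Gabra2 was at 12.46 in B6 and 12.35 in congenic pools on chow and at 13.26 and 13.18 on 2-choice, against 8.29 to 8.97 in liver. The difference was 4.24 ± 0.42 (SE, 4 matched pairs), 18.9-fold, with a limma adjusted p of 1.18e-05. Gabra5, an alpha subunit often placed outside synapses, read 12.36 and 12.76 on chow and 13.37 and 12.87 on 2-choice, against 7.68 to 8.67 in liver. Its difference was 4.62 ± 0.46, 24.7-fold, with a limma adjusted p of 1.17e-05. Both genes were therefore high on every hypothalamus array, with no overlap with liver. Gabra3 stood 3.0 ± 0.45 above liver (limma adjusted p 0.000247), and its lowest hypothalamus array at 11.80 was above its highest liver array at 10.22. Gabra6, a subunit best known from cerebellar granule cells, was the exception: its hypothalamus values of 9.61 and 8.94 on chow and 8.43 and 8.04 on 2-choice overlapped the liver values of 8.28 to 10.56. Its difference of -0.66 ± 0.55 was not called (limma adjusted p 0.364).

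Both beta subunits were called higher. Gabrb1 gave 15.42 and 15.48 on chow and 15.40 and 15.35 on 2-choice in hypothalamus, against 8.43 to 9.55 in liver. The 4 hypothalamus pools lay within 0.13 of each other, and the difference was 6.35 ± 0.29, 81.8-fold (limma adjusted p 2.22e-08). Gabrb2 was at 11.57 and 12.46 on chow and at 12.67 and 12.69 on 2-choice, against 7.70 to 8.72 in liver, a difference of 4.13 ± 0.44 (limma adjusted p 1.94e-05). Its lowest hypothalamus value was that of the B6 chow pool, also on its other probe (10.22, against 11.86 to 12.28 in the other pools). Gabrg1, the gamma subunit measured, was at 12.48 and 12.71 on chow and at 13.39 and 13.80 on 2-choice, against 7.59 to 8.48 in liver. That was 30.4-fold, a log2 difference of 4.93 ± 0.41 (limma adjusted p 2.44e-06).

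The rarer GABA-A subunits split. Gabrq, the theta subunit, was called higher, with 10.88 and 11.75 on chow, 11.42 and 11.32 on 2-choice and 7.67 to 8.24 in liver. The difference of 3.27 ± 0.47, 9.64-fold, had a limma adjusted p of 0.000207. Gabre, the epsilon subunit, read 8.71 and 9.01 on chow and 10.08 and 10.11 on 2-choice, so only the 2-choice arrays lay above its liver range of 8.44 to 9.50. Its difference of 0.49 ± 0.50 was not called (limma adjusted p 0.459). Gabrd, a subunit of receptors outside synapses, and Gabrp, the pi subunit known mostly from tissues other than brain, were under the filter level on all 4 hypothalamus arrays. In the order B6 chow, congenic chow, B6 2-choice, congenic 2-choice, Gabrd read 8.37, 8.64, 8.16 and 8.70, and Gabrp 8.01, 7.63, 8.44 and 8.64. Their differences of -0.66 ± 0.41 and -0.90 ± 0.55 were not called, and the Gabrp liver mean rested on the B6 chow pool, at 11.10 against 8.21 to 8.63 in the other liver pools. Gabrr2, a rho subunit, had hypothalamus values of 10.65, 9.49, 9.85 and 10.26, in the same order, and liver values of 8.03 to 9.06. It was called higher by 1.51 ± 0.47, 2.85-fold (limma adjusted p 0.0254).

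Gabbr1, the GABA-binding subunit of the GABA-B receptor, was called higher. Its values were 11.76 in B6 and 12.80 in congenic pools on chow and 13.11 and 13.08 on 2-choice, against 7.39 to 9.11 in liver. The B6 chow pool was the lowest of the hypothalamus pools and still lay above every liver pool. The difference was 4.36 ± 0.46, 20.6-fold (limma adjusted p 1.89e-05).

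All 3 AMPA receptor subunits measured were called higher. Gria1 was at 16.32 and 16.41 on chow and at 15.96 and 16.05 on 2-choice in hypothalamus, and at 7.70 to 8.30 in liver. It had the largest tissue difference of the 29 members tested, 8.29 ± 0.27, 312-fold (limma adjusted p 1.70e-09). Its other probe gave 14.28 to 14.78 in hypothalamus and 7.01 to 9.52 in liver. Both probes thus separated the tissues with no overlap. Gria2 was at 15.56 and 14.95 on chow and at 16.17 and 16.01 on 2-choice, against 8.44 to 10.10 in liver, 89.5-fold (6.48 ± 0.33, limma adjusted p 4.93e-08). Gria3 was at 13.14 and 13.42 on chow and at 13.11 and 13.78 on 2-choice, against 8.53 to 9.83 in liver, 19.9-fold (4.31 ± 0.36, limma adjusted p 2.49e-06).

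Of the kainate receptor subunits, Grik1 and Grik2 encode core subunits that form channels on their own, and Grik4 and Grik5 encode subunits that need a core partner. Grik1, Grik2 and Grik5 were called higher. Grik1 was at 12.74 and 13.17 on chow and at 12.46 and 12.55 on 2-choice, 3.22 ± 0.51 above liver (limma adjusted p 0.000393). Grik2 ran from 10.96 to 11.94, a difference of 2.85 ± 0.49 (limma adjusted p 0.000705). Grik5 read 12.68 and 11.24 on chow and 13.13 and 12.85 on 2-choice, 2.87 ± 0.38 above liver (limma adjusted p 0.000108). Grik4 lay among its liver values of 7.82 to 8.53 on chow, at 8.17 in B6 and 7.77 in congenic pools, and far above them on 2-choice, at 11.34 and 11.11. Its difference of 1.41 ± 0.61 over all 4 pairs was not called (limma adjusted p 0.0885). In liver, Grik1 stood at 10.69 and 10.42 in the B6 pools against 8.43 and 8.49 in the congenic pools, and Grik5 at 10.13 and 10.26 against 8.80 and 9.23. Neither strain difference in liver was called (-2.10 ± 0.46 and -1.18 ± 0.51, limma adjusted p 0.492 and 0.749).

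The NMDA receptor subunits measured did not follow the AMPA subunits, and Grin1 and Grin3a were not among them. Of the 5 measured, 1 was called higher, 2 were called lower and 2 were not called. Grin2a, a glutamate-binding subunit, read 10.07 and 10.04 on chow and 10.77 and 11.09 on 2-choice, against 8.37 to 9.06 in liver, 3.54-fold (1.82 ± 0.45, limma adjusted p 0.00702). Its other probes stayed at 8.15 to 9.20 in hypothalamus, under the filter level, so the call rests on 1 probe. Grin2c and Grin2d, also glutamate-binding subunits, were called lower in hypothalamus. Grin2c was at 9.72, 10.80, 10.24 and 10.33 (B6 chow, congenic chow, B6 2-choice, congenic 2-choice) against 11.26 to 12.07 in liver, 2.62-fold lower (-1.39 ± 0.41, limma adjusted p 0.0185). Grin2d was at 9.92, 8.63, 10.39 and 10.48 against 10.17 to 12.02 in liver, 2.41-fold lower (-1.27 ± 0.45, limma adjusted p 0.0424). The Grin2c groups did not overlap, and those of Grin2d did. Grin2b, another glutamate-binding subunit, and Grin3b, a glycine-binding one, were not called (-0.66 ± 0.57 and -0.12 ± 0.76, limma adjusted p 0.383 and 0.911). Grin2b reached the filter level on 2 hypothalamus arrays and Grin3b on 1.

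Grm3, a metabotropic receptor of group II, was called higher. It read 10.94 and 12.39 on chow and 11.55 and 11.85 on 2-choice, against 8.50 to 9.96 in liver (2.73 ± 0.50, limma adjusted p 0.00103). Grm6, the receptor of retinal ON bipolar cells, was under the filter level on all 4 hypothalamus arrays, with 7.89 and 8.40 on chow and 7.96 and 7.76 on 2-choice. Its liver values were 8.76 to 10.09, and the difference of -1.20 ± 0.42 was called (2.29-fold lower, limma adjusted p 0.0412). Grm6 entered the test through liver only, where 2 of its 4 arrays reached the filter level. Neither its p nor the size of its difference is therefore support by itself. Non-overlapping lower values were seen for Grin2c and Grm6, 2 of the 29 members, beside 20.8% of all probes. Grid1, a delta receptor subunit, overlapped between tissues (8.88 to 9.99 and 8.17 to 9.57), and Grid2ip was under the filter level on all 4 hypothalamus arrays, with 8.51 and 8.17 on chow and 9.03 and 8.41 on 2-choice. Neither was called (0.49 ± 0.45 and -0.60 ± 0.52, limma adjusted p 0.418 and 0.381). The lower calls depended on single pairs: the count of 3 became 0 without the B6 chow pair or without the congenic 2-choice pair, 1 without the B6 2-choice pair and 2 without the congenic chow pair. The count called higher stayed at 16 or 17.

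**Figure D2:**
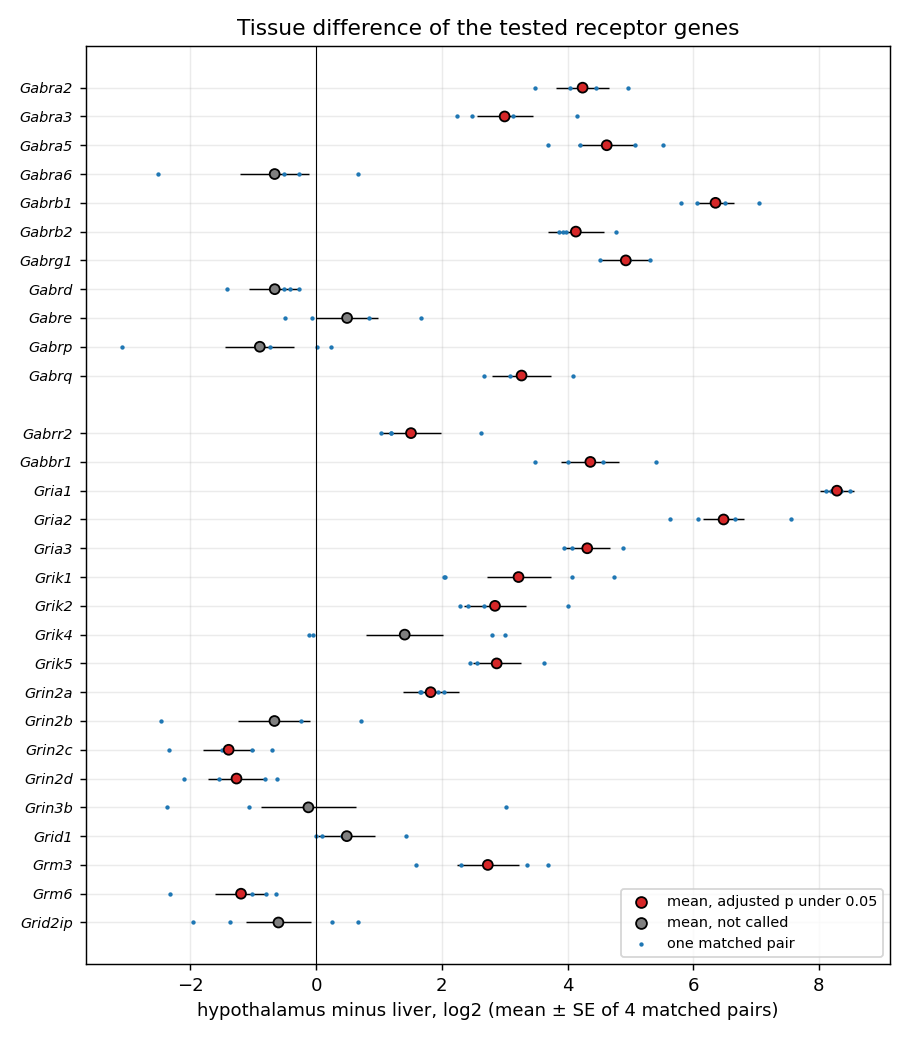
Difference between hypothalamus and liver for the 29 genes tested (x axis, log2), with 1 point for each of the 4 matched pairs and the fitted mean with its SE. The AMPA subunits reach 8.29 for Gria1, while the NMDA subunits measured run from -1.39 to 1.82.

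The genes that make, move and anchor these transmitters and receptors were read from fixed lists. Of all probes tested, 21.3% were called higher in hypothalamus and 20.7% lower. Of the GABA list of synthesis, transport, chloride and anchoring genes, 14 of 16 were measured, and 8 were called higher in hypothalamus, 3 lower and 3 not. The count called lower is near the share of all probes. Gad1 and Gad2, which make GABA, stood 8.59 ± 0.31 and 6.61 ± 0.28 above liver (limma adjusted p 3.13e-09 for Gad1). Slc32a1, which loads GABA into vesicles, stood 6.77 ± 0.46 above and Slc12a5, the chloride exporter of neurons, 3.29 ± 0.47. The genes called lower in hypothalamus were the transporters Slc6a12 and Slc6a13, at -6.51 ± 0.32 and -5.46 ± 0.40, and Gphn, the anchor of GABA-A receptors, at -0.88 ± 0.24. Slc6a12 and Slc6a13 entered the test through liver only. Of the glutamate list, 22 of 32 were measured and 21 tested, and 12 were called higher, 2 lower and 7 not. Slc17a6, which loads glutamate into vesicles, stood 6.14 ± 0.36 above liver (limma adjusted p 1.51e-07) and Dlg4, the main postsynaptic scaffold, 3.62 ± 0.45. The genes called lower were Slc1a2, a glutamate uptake transporter, at -2.44 ± 0.26, and Slc17a8, at -1.74 ± 0.49. Slc17a8 entered the test through liver only, while Gad1, Slc17a6 and Dlg4 entered it through hypothalamus only. For a gene that entered through 1 tissue, neither the p nor the size is support by itself. In hypothalamus, no gene of either list was called for strain (12 and 19 tested) or for diet (12 and 19 tested) by limma, beside 0% and 0.49% of all probes.

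Several members lie side by side in the genome, by gene order in RefSeq on GRCm38.p6. On chromosome 5, Gabrg1 and Gabra2 are neighbours, and 2 coding genes, Cox7b2 and Gabra4, separate them from Gabrb1. All 3 of these members were called higher in hypothalamus. On chromosome 11, Gabrb2 was called higher and its neighbour Gabra6 was not called. On chromosome X, Gabra3 and its neighbour Gabrq were called higher, and Gabre, 1 coding gene away from Gabra3, was not. On chromosome 4, Gabrr2 was called higher and its neighbour Gabrr1 was not tested.

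No member differed between strains in hypothalamus by the test. The count called was 0 of 24, beside 0% of all 19807 probes tested by limma, where 983 had an unadjusted p under 0.05 and the lowest adjusted p was 0.203. At an unadjusted p under 0.05 stood 1 member, Grin3b, which reached the filter level only through its congenic chow array, so its p is no support for a difference. The congenic pool was higher in both the chow and the 2-choice pair for 11 members, beside 24.4% of all probes. It was lower in both for 4, beside 25.1%, and 9 members split. The members' median difference was 0.15, against -0.0019 for all probes.

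Grin3b was at 8.70 in B6 and 11.35 in the congenic pool on chow, and at 8.33 and 9.0 on 2-choice. Its difference therefore came mostly from the chow pair, 2.65 against 0.68 on 2-choice, and the fitted mean was 1.66 ± 0.70 (limma adjusted p 0.823). Grm3 gave 1.45 and 0.30 in the chow and 2-choice pairs (0.88 ± 0.66, limma adjusted p 0.825), and Grin2c gave 1.08 and 0.09. Gabrb2 gave 0.89 and 0.03. In Gria3 (0.28 and 0.67) and Gabrg1 (0.22 and 0.41) the 2-choice pair differed more than the chow pair. On the lower side, Grik5 gave -1.44 and -0.29 (-0.86 ± 0.50, limma adjusted p 0.823) and Gria2 -0.61 and -0.17 (-0.39 ± 0.46, limma adjusted p 0.889). Grik4 gave -0.41 and -0.22 and Gabra2 -0.11 and -0.07. Grin2b, Gabrr2 and Grin2d were among the members whose pairs differed most, lower in the congenic pool on chow (-1.35, -1.16 and -1.30) and higher in it on 2-choice (0.36, 0.41 and 0.09). Gabbr1, the only member on chromosome 17, was higher in the congenic pool by 1.04 on chow and differed by -0.03 on 2-choice (0.51 ± 0.58, limma adjusted p 0.885). The members' median absolute strain difference was 0.416 in the chow pair and 0.157 in the 2-choice pair, against 0.610 and 0.207 over all probes. The chow pair is the one that goes against its labels at Decr2. With either pair left out, each strain is 1 hypothalamus pool, assumed to vary like the other arrays, and limma called 0 members (48 calls over all probes without the chow pair, 1813 without the 2-choice pair).

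**Figure D3:**
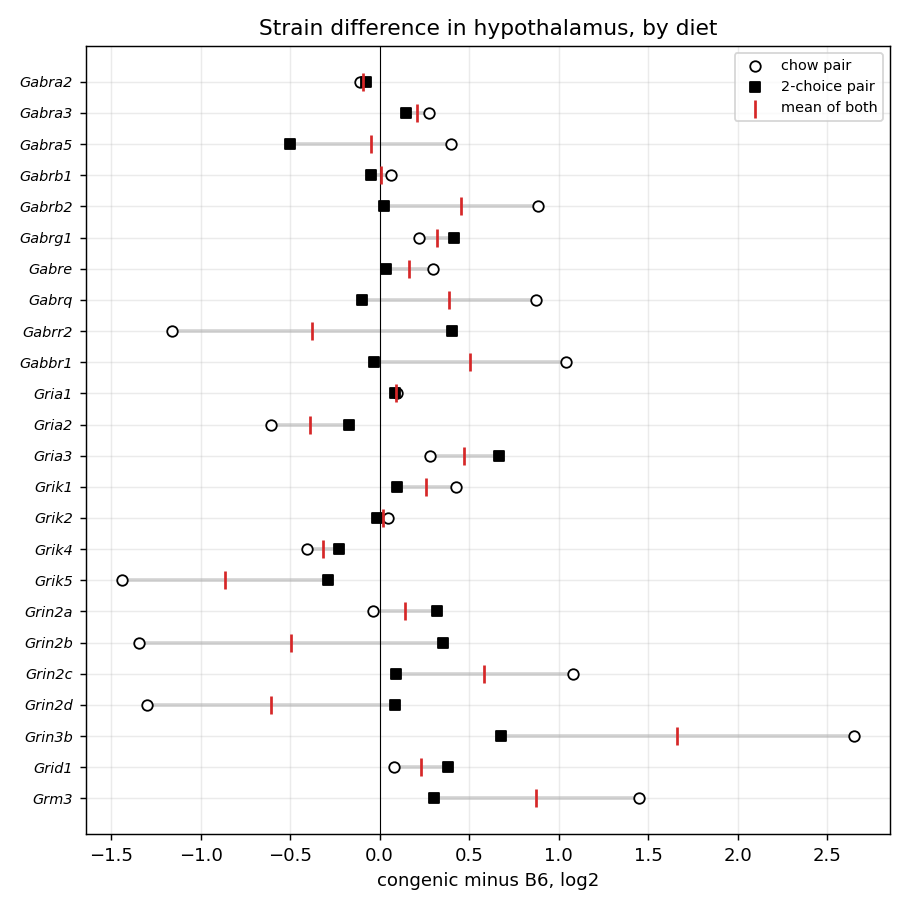
Strain difference in hypothalamus for the 24 genes tested (x axis, congenic minus B6, log2), with the chow pair as circles, the 2-choice pair as squares and the mean of both as a bar. Grin3b is at 2.65 on chow and 0.68 on 2-choice, and Gabrb1, Gria1, Gabra2 and Grik2 lie close to 0 in both pairs.

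Between diets no member passed the test either, though most members stood higher in the 2-choice pools. The count called was 0 of 24 by limma, beside 0.49% of all probes (97 of 19807), and 2 members, Grik4 and Grin2b, had an unadjusted p under 0.05. The 2-choice pool was higher in both strains for 15 members, beside 33.6% of all probes, and lower in both for 4, beside 29.7%, while 5 split. The members' median difference was 0.75, against 0.07 for all probes, and by strain it was 0.656 in B6 and 0.695 in the congenic line. Of the 15, 4 (Gabre, Grid1, Grik4 and Grin2b) were under the filter level on both chow arrays and entered only through the 2-choice arrays, so these counts and medians are partly set by the filter. Without any filter, 17 of all 30 members were higher in both strains, beside 30% of all probes, and 6 lower, beside 30.7%, with medians of 0.61 and -0.02. The 6 then include Gabra6 (-1.18 in B6 and -0.90 in the congenic line) and Gabrr1 (-1.30 and -0.57). On the GABA side 7 of 10 were higher in both strains and on the glutamate side 8 of 14. The mean diet difference of a member over the strains is not altered by which chow pool belongs to which strain. Its SE and p, the values by strain and the counts of both strains would be altered.

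Grik4 had the largest diet difference of the 24. It was at 8.17 on chow and 11.34 on 2-choice in B6 and at 7.77 and 11.11 in the congenic line. The 2-choice pools lay far above the chow pools, by 3.16 and 3.35, and the mean was 3.25 ± 0.59, which was not called (limma adjusted p 0.0524; 0.0598 with no filter). Since Grik4 passed the filter through its 2-choice arrays alone, and its chow values lie under the filter level, neither its p nor the size of its difference is support by itself. The normalized levels follow from the rank on each array, so the ranks of Grik4 restate the same difference and are no separate support. On chow 9.32% and 2.65% of probes ranked below Grik4, on 2-choice 70.1% and 67.8%, and in liver 3.25% to 22.2%. Over the alternatives the limma adjusted p ran from 6.50e-05 on the deposited scale to 0.177 without a trend in the variance.

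Other members with higher 2-choice values included both kinds of receptor. Grin2b and Gabre also reached the filter level through their 2-choice arrays only. Grin2b was at 9.23 and 10.13 in B6 (chow, 2-choice) and at 7.88 and 10.49 in the congenic line (1.76 ± 0.69, limma adjusted p 0.198). Gabre differed by 1.37 in B6 and 1.10 in the congenic line (1.23 ± 0.66, limma adjusted p 0.322), and Gabrg1 by 0.90 and 1.09 (1.00 ± 0.53, limma adjusted p 0.323). In these 3 genes both strains gave the same direction and none was called. Grin2d (0.47 and 1.85) and Grik5 (0.45 and 1.61) differed more in the congenic line than in B6. Gabra2 (0.80 and 0.83) and Grik2 (0.98 and 0.93) were alike in both. Lower in both strains were Grin3b (-0.38 and -2.35, limma adjusted p 0.303 for the mean of -1.36 ± 0.70), Grik1 (-0.28 and -0.61), Gria1 (-0.36 and -0.37) and Gabrb1 (-0.02 and -0.13). Among the members at a mean level of 15 or more, Gria1, Gria2 and Gabrb1, the median was -0.07, beside -0.0067 for all probes of that level. For the 10 members between 11 and 13, all above the filter level on every hypothalamus array, it was 0.675, beside 0.111.

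The diet pools also differed in some markers of other cells, whose part in the receptor differences was not tested. The marker counts use no filter, and over all probes without a filter 30% were higher in both strains and 30.7% lower. Of 8 anterior pituitary markers 5 were measured, and their summed level was 12.09 and 11.70 on chow (B6, congenic) and 15.27 and 13.93 on 2-choice. Of the 5, 3 (Gh, Prl and Cga) were higher on 2-choice in both strains, Lhb was lower in both (-0.42 and -0.45) and Tshb split (-0.81 and 1.23). Growth hormone, Gh, was at 8.28 and 8.74 on chow and at 14.31 and 12.24 on 2-choice. The 4 oligodendrocyte markers measured were all higher in both strains, with summed levels of 16.83 and 17.09 on chow and 17.99 and 17.65 on 2-choice. Of the 5 endothelial markers, 4 were higher in both strains and 0 lower, with a median difference of 1.23. Of the 4 astrocyte markers measured, 2 were higher in both strains and 1 lower, with a median difference of 0.62. Summed neuron markers were 19.68 and 19.70 on chow and 19.93 and 19.92 on 2-choice. Of the 11 neuron markers measured, 6 were higher in both strains and 2 lower, with a median difference of 0.21. Among the 10 hypothalamic neuropeptide genes, 3 were higher in both strains and 4 lower. Among the 4 microglia and macrophage markers, 1 was higher in both and 2 lower. For the 2 markers of neighbouring brain, 1 was higher in both and 0 lower. The 5 hepatocyte markers measured summed to 11.58 and 10.91 on chow and 12.63 and 13.23 on 2-choice, with 2 of the 5 higher in both strains. One of them, Ttr, is also a choroid plexus marker and was at 10.03 and 8.81 on chow and at 12.08 and 11.87 on 2-choice. The 5 choroid plexus and ependyma markers, Ttr among them, did not rise as a sum. They summed to 14.84 and 14.39 on chow and 14.31 and 14.40 on 2-choice, with 2 higher in both strains and 1 lower. Apoa1, Apoh and Fgb differed by -0.12, -0.76 and 0.38 in B6 and by 2.28, 1.23 and -0.07 in the congenic line. Albumin, Alb, stayed at 8.75 to 9.35 except in the congenic 2-choice pool, at 11.42.

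The diet result moved with the scaling of the arrays. On the deposited scale all 23 members tested were called higher, beside 77.6% of all probes, and so were 8 of 23 after centring each array on its median, beside 36.2%. On the centred scale the members' share is near that of all probes. The median over all probes tested then stood at 2.05 and 0.791. With the hypothalamus arrays fitted alone, 3 of 24 members were called higher, Grik4, Gria2 and Gabrg1, beside 2.31% of all probes, in a fit with 1 residual degree of freedom. For Grik1, Gria1 and Gabrb1 the direction depended on this choice, with 1.84, 1.67 and 2.02 on the deposited scale.

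**Figure D4:**
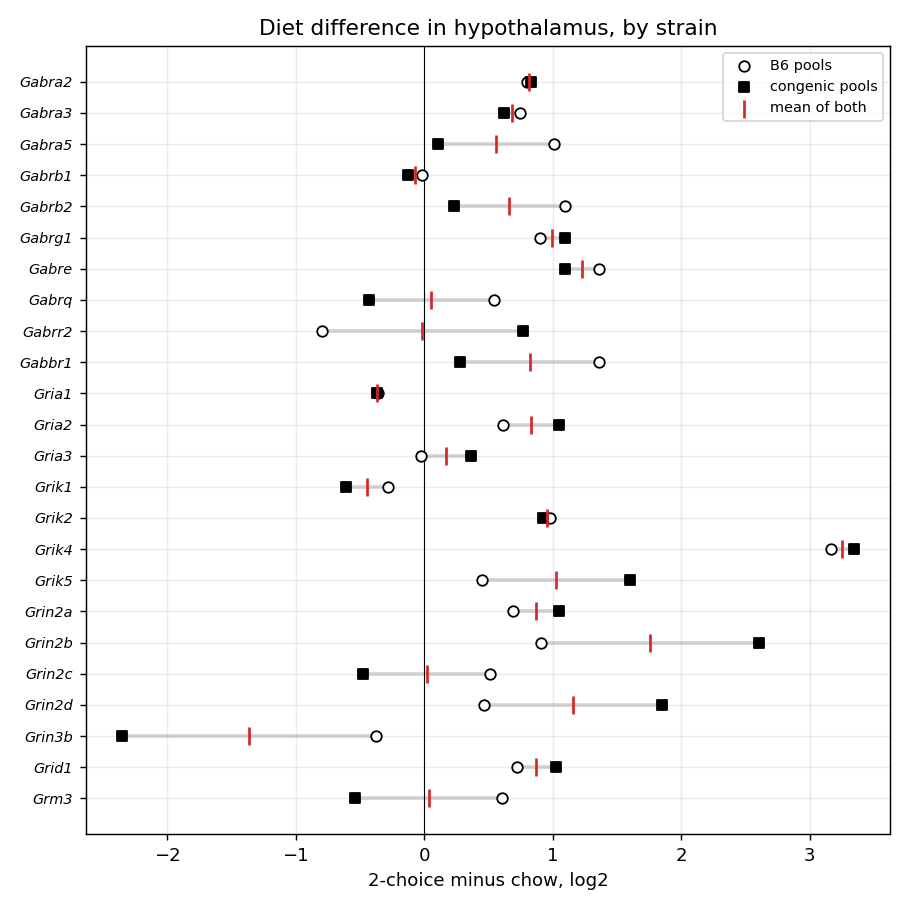
Diet difference in hypothalamus for the 24 genes tested (x axis, 2-choice minus chow, log2), with the B6 pools, the congenic pools and the mean of both. Grik4 lies apart at 3.16 and 3.35, and Grin3b is the farthest to the lower side, at -0.38 and -2.35; the differences of Grik1, Gria1 and Gabrb1 turn positive on the deposited scale.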

How the data were processed

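Per the labels, RNA pools of mouse hypothalamus and liver were hybridised to 1-colour Applied Biosystems AB1700 arrays, 1 array per pool. The authors deposited 1 intensity per probe; how background was corrected and arrays scaled is not stated by those sources, and no detection flag was used. Of 33012 probes, 14411 had 1 gene symbol in the platform annotation, 247 had several and 18354 had none listed.

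Intensities were put on a log2 scale and quantile normalized over the 4 arrays of each tissue. Strain and diet tests kept probes at or above the 40th percentile of mean level in the tissue, and the tissue test kept probes that reached it in either tissue. limma 3.58.1 in R 4.3.3, with a variance trend, gave moderated tests: tissue with the 4 matched pairs as a block (3 residual degrees of freedom), and strain and diet within each tissue in 1 fit of all 8 arrays (2 residual degrees of freedom). P-values were adjusted by Benjamini-Hochberg over all probes tested, at 0.05, and the scripts were tested on simulated data. The number of arrays limits the precision.

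Members named with each hypothalamus value were the 10 with the largest tissue rises, those tested with a lower mean in hypothalamus, the 6 with the largest strain or diet differences in each direction among those with 1 sign in both pairs, the 6 whose pairs differed most and the member on chromosome 17. Others were given for their family. Members, lists and tests were chosen with earlier results of these data known. Alternatives covered scaling, filter, variance trend, probe choice and leaving out each pair.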

Additional observations from a re-analysis of the deposited data

Results flagged for a closer look

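In hypothalamus, 9 of 24 members had opposite strain differences (congenic minus B6) in the chow and the 2-choice pair. Over all probes tested, 24.4% were higher and 25.1% lower in both pairs, and the others split. Opposite signs were therefore not more frequent among the members than among all probes. Each arm is 1 pool, so the difference between the pairs was not tested for any of the 9 members. The change in the strain difference from chow to 2-choice was 1.70 for Grin2b, 1.56 for Gabrr2, 1.38 for Grin2d and 0.35 for Grin2a. It was -1.08 for Gabbr1, -0.97 for Gabrq, -0.90 for Gabra5, -0.11 for Gabrb1 and -0.057 for Grik2. Several of these are small: the strain differences of Gabrb1 were 0.06 and -0.05.

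The diet difference (2-choice minus chow) had opposite signs in the strains for 5 of 24 members, and this was not tested either. Over all probes tested, 33.6% were higher and 29.7% lower in both strains, and the others split. Here too, opposite signs were not more frequent among the members. The congenic difference less the B6 difference was 1.56 for Gabrr2, 0.39 for Gria3, -0.97 for Gabrq, -0.99 for Grin2c and -1.15 for Grm3. For Gabrr2 and Gabrq this is the same combination of the 4 arrays as above. The hypothalamus chow pair, which goes against its strain labels at Decr2, enters all of these values.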

How the results depend on the processing

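The count of members called higher in hypothalamus than in liver was 17 and stayed between 16 and 17 under every alternative. The 3 called lower became 1 on the deposited scale and 0 to 2 with 1 matched pair left out; the cause was not tested. With both chow pairs left out, a choice made after seeing the data, 17 were called higher, of which 16 were shared with the full set, and 2 lower. Gabrr2 (1.11, limma adjusted p 0.110) and Grin2d (-0.72, 0.190) lost their calls there. Grik4 was called, which follows from leaving out the arrays on which it lay at liver level. Grin3b changed sign, running from -1.17 without the congenic chow pair to 0.63 without the B6 2-choice pair (0.19 without the B6 chow pair).

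No member was called for strain under any alternative run, of which leaving out a hypothalamus pair leaves 1 pool per strain, and Gabbr1 ran from -0.032 without the hypothalamus chow pair, where its sign changed, to 1.04 without the 2-choice pair. For diet, 0 members were called; 23 were on the deposited scale (15430 calls over all probes), 8 after median centring (7633) and 3 with hypothalamus arrays alone (753), against 97 in the reported fit. With 1 pair left out the count was 0 to 1, the 1 being Grik4 without the hypothalamus B6 or congenic pair, where each diet is 1 hypothalamus pool assumed to vary like the other arrays. Signs turned for Grik1, Gria1 and Gabrb1, to 1.84, 1.67 and 2.02 on the deposited scale and 0.59, 0.41 and 0.76 after median centring. The deposited scale keeps the difference in median intensity between the diet sets; for median centring the cause was not tested. The 97 diet calls over all probes became 202 with quantiles over all 8 arrays, 43 with the filter at the 60th percentile and 0 without a variance trend.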
